A study of Homo sapiens with 4 samples.

Results

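ERK, the last kinase of the RAS-RAF-MEK-ERK cascade, induces a set of genes, and many of their products act back on the cascade. The 10 genes described here are members of that set, namely the dual-specificity phosphatases DUSP1, DUSP4, DUSP5 and DUSP6, the Sprouty genes SPRY2 and SPRY4, the Sprouty-related genes SPRED1 and SPRED2, and the PEA3-type ETS factors ETV4 and ETV5. They were chosen by name among the 60651 genes of the deposited count table, and each name matched a row. All 10 passed the filter on low counts, as did 15636 genes in all.

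The genes were measured by RNA sequencing in KP4, an established human pancreatic ductal adenocarcinoma line, in 12 libraries that form 4 groups of 3. E5 cells given FOLFIRINOX, E5 cells given vehicle, control cells given FOLFIRINOX and control cells given vehicle were each collected after 96 h. The drug mixture held 25 nM SN-38, the active metabolite of irinotecan, 10 µM 5-F (the labels' own spelling) together with 5 µM oxaliplatin, and the vehicle was DMSO. Per the series' design text and title, E5 cells are KP4 cells analysed after 5 treatment cycles and are called resistant, but whether the E5 cells given vehicle had earlier cycles of the drugs or of DMSO cannot be read from the text with certainty. All 4 groups share the parental line and were grown in DMEM with 10% FBS. No source used here says whether E5 is a clone or a pool, or whether the 3 libraries of a group came from separate cultures, so p-values measure the spread between these libraries, which may be technical.

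ERK phosphorylates nuclear and cytoplasmic targets and is switched off by phosphatases that remove phosphate from its activation loop. Among these, DUSP1, DUSP4 and DUSP5 sit in the nucleus and DUSP6 in the cytoplasm. DUSP5 and DUSP6 act on ERK in preference to the stress kinases JNK and p38, while DUSP1 and DUSP4 also act on those kinases. Sprouty and SPRED proteins act upstream, between receptor tyrosine kinases and RAF, and SPRED1 and SPRED2 bring the RAS GTPase-activating protein neurofibromin to the membrane. ETV4 and ETV5 are transcription factors rather than inhibitors, and their messages are widely read as a sign of ERK output because the repressor CIC, which ERK inactivates, keeps them low.

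Gene counts per library ranged from 7359034 to 21775030, and the biological coefficient of variation over all genes was 7.37%. KP4 carried the epithelial keratins KRT8 and KRT18 at 31.7 to 240.0 and 171 to 621 CPM (gene counts scaled to library size) as group means. KRT19, EPCAM and CDH1 stayed at or below 4.37 CPM, so these markers of ductal and epithelial cells were low, while VIM averaged 1993 to 2869 CPM. Summed over the 7 ductal and epithelial markers, the level was 770 to 873 CPM in E5 cells given FOLFIRINOX and 744 to 830 CPM in E5 cells given vehicle. In control cells the sum was 417 to 459 CPM under FOLFIRINOX and 196 to 231 CPM under vehicle. PTPRC, which encodes the leukocyte phosphatase CD45, averaged 0.034 and 0.066 CPM in E5 cells given FOLFIRINOX and vehicle, against 11.4 and 51.8 CPM in control cells given FOLFIRINOX and vehicle. The T cell gene CD3E had 0 counts in every group. The sum of the 7 ductal and epithelial markers was carried by KRT8 and KRT18. KRT7 averaged 9.12 and 6.68 CPM in E5 cells given FOLFIRINOX and vehicle, against 2.54 and 1.15 CPM in control cells given FOLFIRINOX and vehicle. The means of MUC1, KRT19 and CDH1 were also higher in E5 than in control cells under both treatments. Only EPCAM ran the other way, at 0.444 and 0.291 CPM in E5 cells given FOLFIRINOX and vehicle, against 1.20 and 0.598 CPM in control cells given FOLFIRINOX and vehicle. The fibroblast collagen gene COL1A1 averaged 9.46 and 15.5 CPM in E5 cells given FOLFIRINOX and vehicle, against 2.65 and 3.84 CPM in control cells given FOLFIRINOX and vehicle. The other fibroblast markers looked at, COL1A2, LUM and DCN, were nearly absent, with group means of at most 0.146, 0.115 and 0.0165 CPM. FN1, which encodes fibronectin, averaged 19.7 and 27.9 CPM in E5 cells given FOLFIRINOX and vehicle, against 9.86 and 6.25 CPM in control cells given FOLFIRINOX and vehicle. The mesenchymal markers CDH2 and ZEB1 ran the other way. CDH2 averaged 79.4 and 70.9 CPM in E5 cells given FOLFIRINOX and vehicle, against 106 and 135 CPM in control cells given FOLFIRINOX and vehicle. ZEB1 averaged 63.9 and 38.0 CPM in E5 cells given FOLFIRINOX and vehicle, against 80.1 and 56.5 CPM in control cells given FOLFIRINOX and vehicle. The VIM mean was lower in E5 than in control cells under FOLFIRINOX and higher under vehicle. The markers that differ between E5 and control cells do so in both directions, and their part in the results below was not tested. As in any bulk sample, fewer cells of a kind and less RNA per cell cannot be told apart.

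Levels of different genes were compared per length, as the authors' FPKM (fragments scaled by gene length and library depth). ETV5 was the highest of the 10 in both vehicle groups, at 39.6 ± 4.91 FPKM in E5 cells and 37.8 ± 3.55 FPKM in control cells (SD, n = 3 each), and its libraries did not overlap with those of the next gene. Under FOLFIRINOX the order changed differently in each line. In control cells given FOLFIRINOX, DUSP5 stood at the top with 68.5 ± 8.57 FPKM and DUSP1 followed with 43.2 ± 2.70 FPKM, neither overlapping with its neighbour. In E5 cells given FOLFIRINOX, DUSP1 (23.6 ± 0.531 FPKM) and ETV5 (23.6 ± 2.26 FPKM) led with overlapping libraries, and DUSP5 was the 9th of 10 at 10.8 ± 0.382 FPKM. DUSP4 was the lowest in 3 groups, at 9.86 FPKM in E5 cells given FOLFIRINOX, 4.79 FPKM in control cells given FOLFIRINOX and 2.60 FPKM in control cells given vehicle, and DUSP5 was the lowest in E5 cells given vehicle at 5.26 FPKM. Over all 12 libraries the 10 genes had mean levels of 5.87 FPKM (DUSP4) to 32.6 FPKM (ETV5), at the 42.4th to 79.0th percentile of the genes tested.

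**Figure D1:**
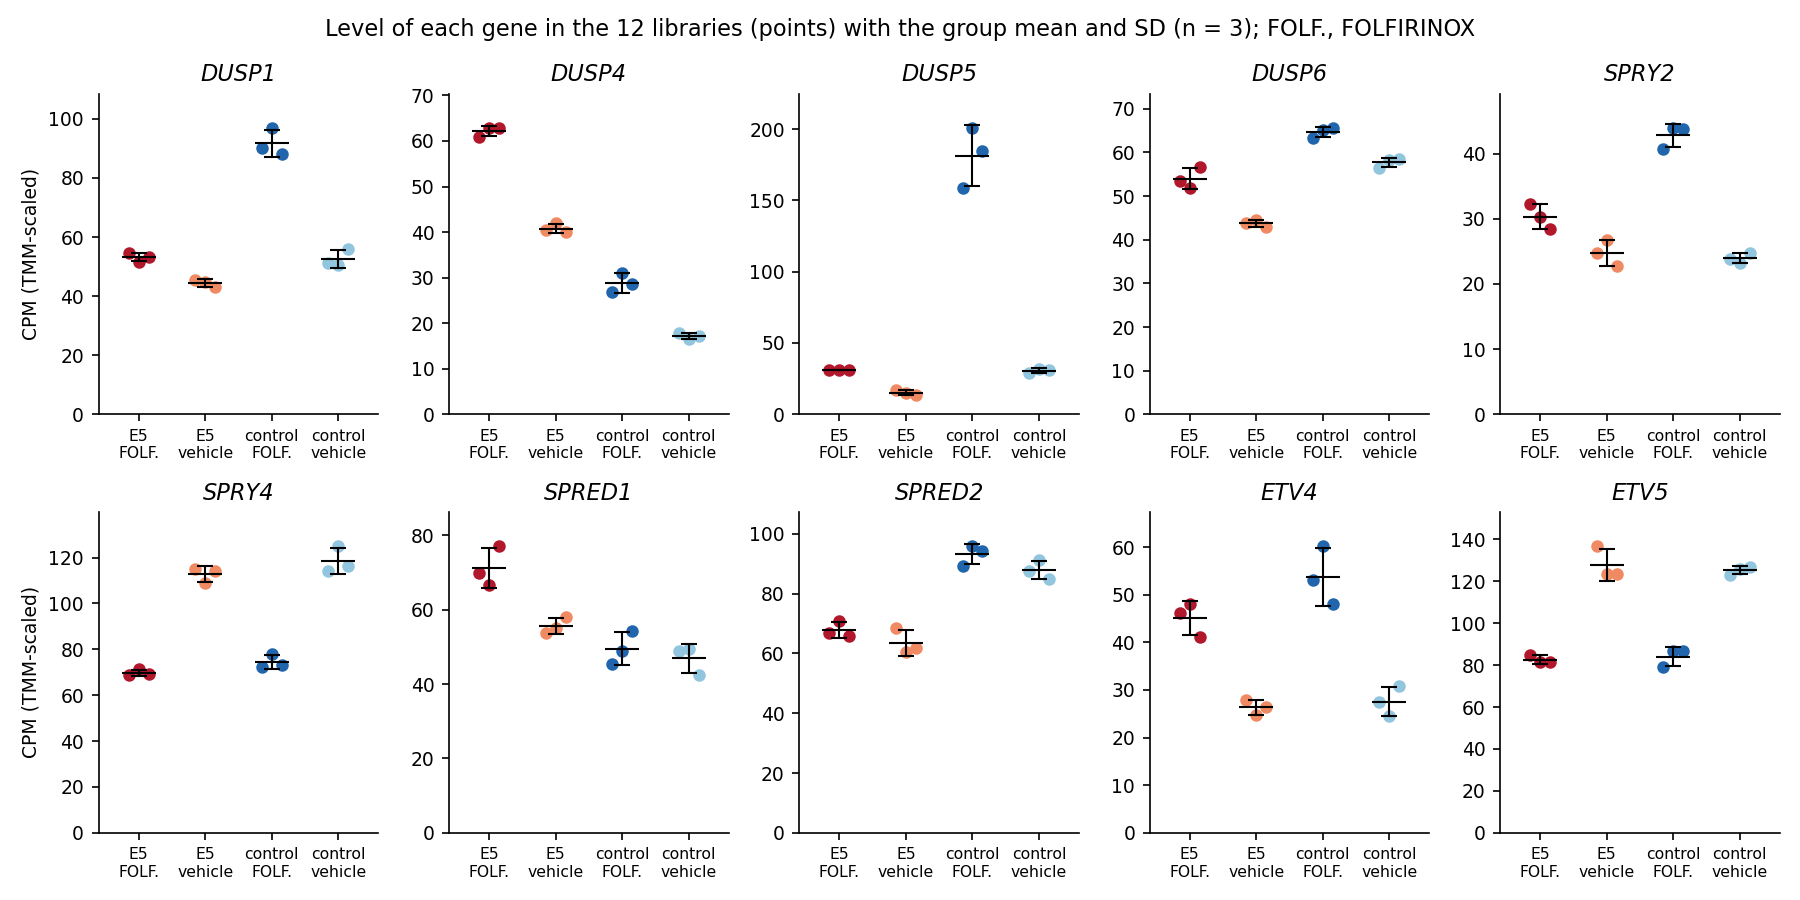
TMM-scaled CPM (vertical axis, from 0) of the 10 genes in the 12 libraries, with 1 panel per gene, points for libraries and bars for the group mean and SD. DUSP5 stands apart in control cells given FOLFIRINOX (159 to 201 CPM), while SPRY4 and ETV5 are lower in both FOLFIRINOX groups than in both vehicle groups.

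The phosphatase DUSP5 showed the widest range of the 10 genes. It lies at chr10:110497907-110511533 (GRCh38, as in the files) and encodes a nuclear phosphatase that dephosphorylates ERK and holds it in the nucleus. DUSP5 had 30.9, 31.2 and 31.0 CPM in E5 cells given FOLFIRINOX, against 16.9, 14.9 and 13.6 CPM in E5 cells given vehicle. It had 159, 201 and 185 CPM in control cells given FOLFIRINOX, against 28.8, 31.9 and 30.9 CPM in control cells given vehicle. All FOLFIRINOX libraries were above all vehicle libraries of their line, and those of E5 cells given FOLFIRINOX lay within the range of control cells given vehicle. The mean of the highest group, control cells given FOLFIRINOX, was 12.01 times that of the lowest, E5 cells given vehicle. For the other 9 genes this ratio ran between 1.47 for SPRED2 and 3.64 for DUSP4.

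DUSP5 rose with FOLFIRINOX by 1.05 ± 0.10 on the log2 scale in E5 cells (2.07-fold; adjusted p = 2.52e-07) and by 2.57 ± 0.09 in control cells (5.94-fold; adjusted p = 7.11e-13). These and all following tests are edgeR quasi-likelihood tests on the counts, given as log2 fold change ± SE, with p adjusted over all 15636 genes by the Benjamini-Hochberg method and called below 0.05. The response of E5 cells minus that of control cells was -1.52 ± 0.13 (adjusted p = 8.93e-07). DUSP5 was also lower in E5 than in control cells under both treatments, by -2.55 ± 0.09 under FOLFIRINOX (adjusted p = 2.59e-13) and by -1.03 ± 0.10 under vehicle (adjusted p = 2.27e-07). Under FOLFIRINOX the value for DUSP5 was at the 1.27th percentile of all genes. Leaving out each library in turn left the difference of the responses between -1.60 and -1.43.

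DUSP1, at chr5:172768096-172771195, encodes a nuclear phosphatase of ERK, JNK and p38 that many stresses induce. It had 54.6, 51.7 and 53.3 CPM in E5 cells given FOLFIRINOX, against 45.6, 44.7 and 43.1 CPM in E5 cells given vehicle. DUSP1 had 90.3, 96.9 and 88.0 CPM in control cells given FOLFIRINOX, against 51.3, 50.4 and 56.0 CPM in control cells given vehicle. The order of the groups was that of DUSP5, with control cells given FOLFIRINOX apart from the rest, E5 cells given FOLFIRINOX overlapping with control cells given vehicle, and E5 cells given vehicle lowest. DUSP1 rose with FOLFIRINOX by 0.26 ± 0.07 in E5 cells (adjusted p = 0.00419) and by 0.80 ± 0.07 in control cells (adjusted p = 1.65e-08), and the E5 response minus the control response was -0.54 ± 0.09 (adjusted p = 0.000591). E5 cells had less DUSP1 than control cells under FOLFIRINOX (-0.79 ± 0.07; adjusted p = 2.69e-08) and under vehicle (-0.24 ± 0.07; adjusted p = 0.00805). The call of DUSP1 under vehicle was lost without the filter on low counts (-0.24; adjusted p = 0.0520 by edgeR).

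DUSP4, at chr8:29333064-29350684, encodes another nuclear phosphatase of ERK and JNK, and it was the phosphatase that ran the other way between the lines. DUSP4 had 60.8, 62.9 and 62.8 CPM in E5 cells given FOLFIRINOX, against 40.4, 42.0 and 39.9 CPM in E5 cells given vehicle. It had 26.8, 31.1 and 28.6 CPM in control cells given FOLFIRINOX, against 17.8, 16.4 and 17.1 CPM in control cells given vehicle. No pair of the 4 groups overlapped, and every E5 library was above every control library. DUSP4 was higher in E5 than in control cells under FOLFIRINOX (1.10 ± 0.07, or 2.14-fold; adjusted p = 7.30e-10) and under vehicle (1.26 ± 0.08, or 2.40-fold; adjusted p = 3.43e-10). It rose with FOLFIRINOX by 0.61 ± 0.07 in E5 cells (adjusted p = 1.54e-06) and by 0.77 ± 0.08 in control cells (adjusted p = 1.37e-07). The responses of DUSP4 differed by -0.16 ± 0.10, which was not called (adjusted p = 0.256).

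DUSP6, at chr12:89347235-89352501, encodes the cytoplasmic phosphatase that is specific to ERK and whose message is a common read-out of ERK activity. It had 53.5, 51.9 and 56.6 CPM in E5 cells given FOLFIRINOX, against 43.9, 44.5 and 42.8 CPM in E5 cells given vehicle. DUSP6 had 63.3, 65.1 and 65.6 CPM in control cells given FOLFIRINOX, against 56.4, 58.2 and 58.5 CPM in control cells given vehicle. The groups were close together without overlap in any of the 4 comparisons, and the drug effect was small in both lines. DUSP6 rose with FOLFIRINOX by 0.30 ± 0.06 in E5 cells (adjusted p = 0.000667) and by 0.17 ± 0.06 in control cells (adjusted p = 0.0249), and the difference of the responses was 0.14 ± 0.09 (adjusted p = 0.266). The call of DUSP6 in control cells was lost without the filter on low counts (0.13) and without control FOLFIRINOX library 3 (0.16; adjusted p = 0.0648), control vehicle library 1 (0.14; adjusted p = 0.0932) or control vehicle library 2 (0.17; adjusted p = 0.0582), each by edgeR. DUSP6 was lower in E5 than in control cells under FOLFIRINOX (-0.26 ± 0.06; adjusted p = 0.00148) and under vehicle (-0.40 ± 0.06; adjusted p = 5.63e-05), and the call under FOLFIRINOX was lost without the filter (-0.21; adjusted p = 0.0649 by edgeR).

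Given as a share of their summed FPKM, the 4 phosphatases had a different make-up in each group. The sum was 59.4 ± 1.37 FPKM in E5 cells given FOLFIRINOX and 42.9 ± 2.10 FPKM in E5 cells given vehicle, against 136 ± 10.6 FPKM in control cells given FOLFIRINOX and 51.7 ± 0.357 FPKM in control cells given vehicle (SD, n = 3 each). These sums use FPKM as deposited, without TMM scaling. On log2(FPKM + 1) the median of all genes was 0.14 for FOLFIRINOX in control cells and -0.10 for E5 against control cells under FOLFIRINOX. Sums are to be compared between groups with that shift in mind, which the shares within a library do not carry. DUSP5 made up 18.2 ± 0.400% of the sum in E5 cells given FOLFIRINOX and 12.2 ± 0.947% in E5 cells given vehicle, against 50.3 ± 2.51% and 20.4 ± 0.892% in control cells given FOLFIRINOX and vehicle. DUSP4 made up 16.6 ± 0.611% and 14.5 ± 0.787% in E5 cells given FOLFIRINOX and vehicle, against 3.53 ± 0.0401% and 5.03 ± 0.218% in control cells given FOLFIRINOX and vehicle. DUSP1 held 39.8 ± 0.0269% in E5 cells given FOLFIRINOX, 43.5 ± 0.280% in E5 cells given vehicle, 31.9 ± 1.72% in control cells given FOLFIRINOX and 43.3 ± 2.34% in control cells given vehicle. DUSP5 took the largest share in control cells given FOLFIRINOX and DUSP1 in each of the other 3 groups.

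**Figure D2:**
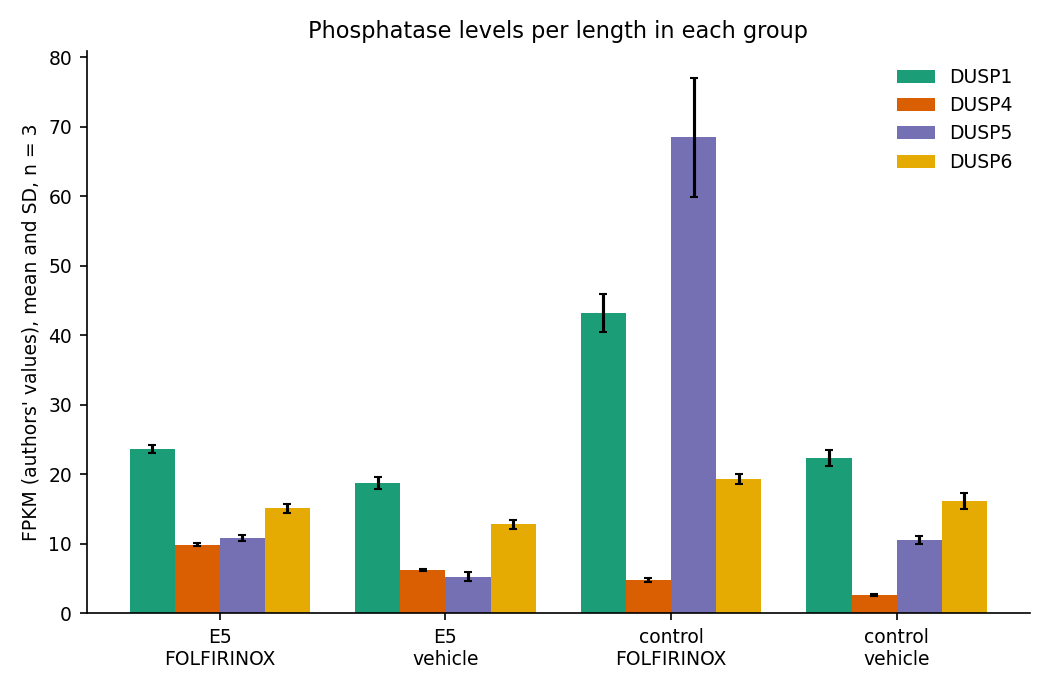
Level per length (authors' FPKM, vertical axis from 0) of the 4 phosphatase genes in each group, as bars for the mean and whiskers for the SD of 3 libraries. DUSP5 reaches 68.5 FPKM in control cells given FOLFIRINOX and 10.8 FPKM in E5 cells given FOLFIRINOX, while DUSP4 is higher in both E5 groups (9.86 and 6.23 FPKM) than in both control groups (4.79 and 2.60 FPKM).

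SPRY2 and SPRY4 encode closely related inhibitors of the cascade, and FOLFIRINOX moved their messages in opposite directions in both lines. SPRY2, at chr13:80335976-80341126, had 32.3, 30.2 and 28.4 CPM in E5 cells given FOLFIRINOX, against 24.7, 26.8 and 22.7 CPM in E5 cells given vehicle. It had 40.7, 43.9 and 43.7 CPM in control cells given FOLFIRINOX, against 23.9, 23.2 and 24.7 CPM in control cells given vehicle. The drug groups of SPRY2 were above the vehicle groups without overlap, and the vehicle groups of the lines overlapped. SPRY2 rose by 0.29 ± 0.08 in E5 cells (adjusted p = 0.00674) and by 0.84 ± 0.08 in control cells (adjusted p = 8.01e-08), and the E5 response minus the control response was -0.55 ± 0.11 (adjusted p = 0.00208). The call of SPRY2 in E5 cells was lost without E5 vehicle library 3 (0.23; adjusted p = 0.0517 by edgeR). SPRY2 was lower in E5 than in control cells under FOLFIRINOX (-0.50 ± 0.08; adjusted p = 3.45e-05), while under vehicle the value was 0.05 ± 0.08 (adjusted p = 0.641).

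SPRY4, at chr5:142310427-142326455, had 68.7, 71.3 and 69.3 CPM in E5 cells given FOLFIRINOX, against 115, 109 and 114 CPM in E5 cells given vehicle. It had 72.4, 77.7 and 73.0 CPM in control cells given FOLFIRINOX, against 114, 125 and 116 CPM in control cells given vehicle. All 6 FOLFIRINOX libraries lay below all 6 vehicle libraries. SPRY4 fell by 0.69 ± 0.06 in E5 cells (adjusted p = 1.11e-07) and by 0.67 ± 0.06 in control cells (adjusted p = 5.55e-08), and the responses differed by -0.02 ± 0.09 (adjusted p = 0.892). Between the lines the value of SPRY4 was -0.09 ± 0.06 under FOLFIRINOX, not called (adjusted p = 0.208) although the libraries did not overlap, and -0.07 ± 0.06 under vehicle (adjusted p = 0.343). Scaling by total counts alone called SPRY4 lower in E5 cells under FOLFIRINOX (-0.17; adjusted p = 0.0275 by edgeR). Per length, the ratio of SPRY4 to SPRY2 was 1.01 ± 0.0704 in E5 cells given FOLFIRINOX and 2.06 ± 0.255 in E5 cells given vehicle, against 0.787 ± 0.0276 and 2.24 ± 0.157 in control cells given FOLFIRINOX and vehicle.

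The SPRED genes, whose products inhibit the activation of RAF, differed in opposite directions between the lines. SPRED1, at chr15:38252836-38357249, had 69.9, 66.6 and 77.0 CPM in E5 cells given FOLFIRINOX, against 53.8, 55.1 and 58.1 CPM in E5 cells given vehicle. It had 45.5, 48.7 and 54.2 CPM in control cells given FOLFIRINOX, against 48.8, 49.5 and 42.5 CPM in control cells given vehicle. SPRED1 libraries of the drug and vehicle groups overlapped in control cells and not in E5 cells. SPRED1 rose with FOLFIRINOX in E5 cells by 0.35 ± 0.08 (adjusted p = 0.00180), the value in control cells was 0.09 ± 0.08 (adjusted p = 0.383), and the difference of these responses, 0.27 ± 0.12, was not called (adjusted p = 0.108). That difference was called without control FOLFIRINOX library 3 (0.35; adjusted p = 0.0479) or control vehicle library 3 (0.34; adjusted p = 0.0471), by edgeR. SPRED1 was higher in E5 than in control cells under FOLFIRINOX (0.52 ± 0.08; adjusted p = 4.91e-05) and under vehicle (0.25 ± 0.08; adjusted p = 0.0237). The call of SPRED1 under vehicle was lost without control vehicle library 3 (0.18; adjusted p = 0.119), E5 vehicle library 2 (0.26; adjusted p = 0.0505) or E5 vehicle library 3 (0.22; adjusted p = 0.0897), by edgeR, and by limma on log2(FPKM + 1) (0.28; adjusted p = 0.140).

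SPRED2, at chr2:65310851-65432637, had 66.9, 70.8 and 65.8 CPM in E5 cells given FOLFIRINOX, against 68.5, 60.4 and 61.8 CPM in E5 cells given vehicle. It had 89.4, 95.9 and 94.2 CPM in control cells given FOLFIRINOX, against 87.5, 91.2 and 85.0 CPM in control cells given vehicle. All 6 E5 libraries lay below all 6 control libraries, and drug and vehicle libraries overlapped in both lines. SPRED2 was lower in E5 than in control cells under FOLFIRINOX (-0.46 ± 0.07; adjusted p = 1.45e-05) and under vehicle (-0.47 ± 0.07; adjusted p = 1.78e-05). The drug response of SPRED2 was 0.10 ± 0.07 in E5 cells (adjusted p = 0.233) and 0.09 ± 0.06 in control cells (adjusted p = 0.259), neither called. Scaling by total counts alone called both (0.17 in E5 cells, adjusted p = 0.0491, and 0.22 in control cells, adjusted p = 0.00736, by edgeR), and likewise SPRED1 in control cells (0.22; adjusted p = 0.0267 by edgeR). Per length, SPRED2 stood at 1.30 ± 0.212 and 1.65 ± 0.397 times SPRED1 in E5 cells given FOLFIRINOX and vehicle, against 2.83 ± 0.315 and 2.79 ± 0.432 times in control cells given FOLFIRINOX and vehicle.

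The PEA3-type factors ETV4 and ETV5 also moved in opposite directions with FOLFIRINOX, and each did so alike in direction in both lines. ETV4, at chr17:43527844-43579620, had 46.2, 48.1 and 41.1 CPM in E5 cells given FOLFIRINOX, against 27.8, 24.7 and 26.4 CPM in E5 cells given vehicle. It had 53.0, 60.1 and 47.9 CPM in control cells given FOLFIRINOX, against 27.4, 24.5 and 30.7 CPM in control cells given vehicle. All 6 FOLFIRINOX libraries of ETV4 lay above all 6 vehicle libraries, and the lines overlapped within each treatment. ETV4 rose by 0.79 ± 0.10 in E5 cells (adjusted p = 8.30e-06) and by 0.97 ± 0.10 in control cells (adjusted p = 2.68e-07), and the responses differed by -0.18 ± 0.14 (adjusted p = 0.388). Between the lines ETV4 was called lower in E5 cells under FOLFIRINOX (-0.25 ± 0.10; adjusted p = 0.0344) despite the overlap, and the value under vehicle was -0.07 ± 0.11 (adjusted p = 0.617). This call of ETV4 was the least stable of all: it was lost with the replicate number as a block (-0.25; adjusted p = 0.0511), in a fit of the pair of groups alone (-0.25; adjusted p = 0.0505) and without the filter (-0.20; adjusted p = 0.0998). It was also lost without control FOLFIRINOX library 1 (-0.25; adjusted p = 0.0702) or 2 (-0.14; adjusted p = 0.234), or E5 FOLFIRINOX library 1 (-0.27; adjusted p = 0.0586) or 3 (-0.17; adjusted p = 0.171), all by edgeR.

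ETV5, at chr3:186046314-186110318, had 85.0, 81.7 and 81.4 CPM in E5 cells given FOLFIRINOX, against 137, 123 and 123 CPM in E5 cells given vehicle. It had 79.0, 86.6 and 86.7 CPM in control cells given FOLFIRINOX, against 123, 126 and 127 CPM in control cells given vehicle. All 6 FOLFIRINOX libraries of ETV5 lay below all 6 vehicle libraries, and the lines overlapped. ETV5 fell by 0.63 ± 0.06 in E5 cells (adjusted p = 4.20e-07) and by 0.57 ± 0.06 in control cells (adjusted p = 5.01e-07), and the responses differed by -0.05 ± 0.09 (adjusted p = 0.695). Between the lines the value of ETV5 was -0.03 ± 0.06 under FOLFIRINOX (adjusted p = 0.735) and 0.03 ± 0.06 under vehicle (adjusted p = 0.761), though limma on log2(FPKM + 1) called it lower in E5 cells under FOLFIRINOX (-0.31; adjusted p = 0.0245). Per length, ETV5 stood at 1.15 ± 0.0280 and 3.62 ± 0.379 times ETV4 in E5 cells given FOLFIRINOX and vehicle, against 1.16 ± 0.0737 and 3.20 ± 0.649 times in control cells given FOLFIRINOX and vehicle.

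**Figure D3:**
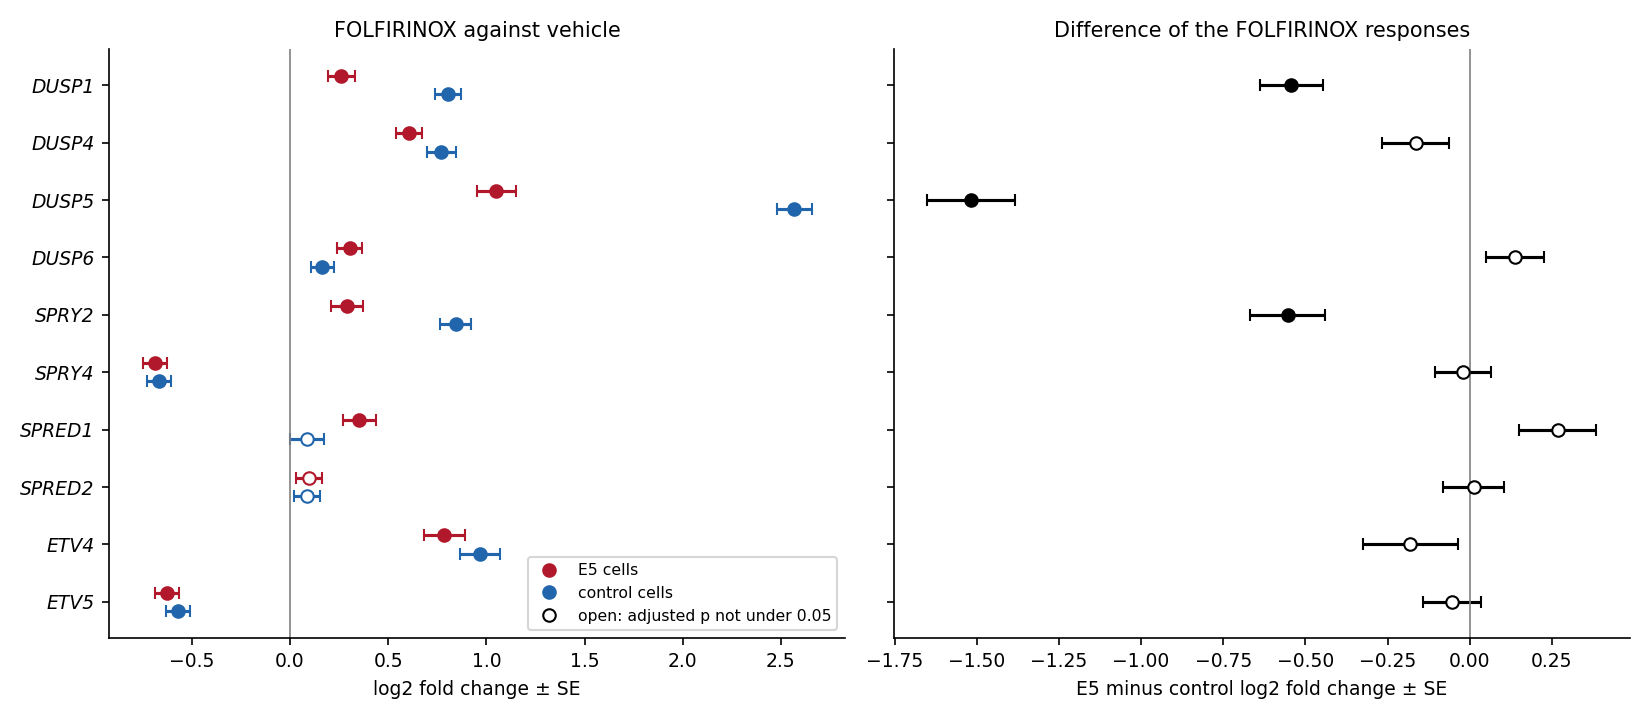
Left, log2 fold change ± SE of FOLFIRINOX against vehicle for each gene in E5 cells (red, upper point) and control cells (blue, lower point); right, the E5 response minus the control response. Open points have an adjusted p of 0.05 or more; SPRY4 and ETV5 lie left of 0 in both lines, and DUSP1, DUSP5 and SPRY2 carry the called differences (-0.54, -1.52 and -0.55).

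Counted over the 10 genes, FOLFIRINOX raised 7 (all 4 phosphatases, SPRY2, SPRED1 and ETV4) and lowered 2 (SPRY4 and ETV5) in E5 cells, where 52.3% of all genes tested were called, 25.0% as higher and 27.3% as lower. In control cells it raised 6 (the same without SPRED1) and lowered the same 2, beside 65.3% of all genes called, 32.6% as higher and 32.7% as lower. The median log2 fold change of the 10 genes was 0.30 in E5 cells and 0.47 in control cells, beside 0.0034 and 0.0044 over all genes. Drug and vehicle libraries did not overlap for 9 of the 10 genes in E5 cells and for 8 in control cells, where the share over all genes was 59.7% in E5 cells and 67.0% in control cells. Calls were thus frequent over the whole table in both lines, and the count of the 10 genes called is to be read against that share.

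Between the lines, E5 cells under FOLFIRINOX had 2 of the 10 genes higher (DUSP4 and SPRED1) and 6 lower (DUSP1, DUSP5, DUSP6, SPRY2, SPRED2 and ETV4), beside 54.3% of all genes called, 26.7% as higher and 27.6% as lower. Under vehicle the same 2 were higher and 4 lower (DUSP1, DUSP5, DUSP6 and SPRED2), beside 44.4% of all genes called, 22.1% as higher and 22.2% as lower. The median of the 10 genes was -0.26 under FOLFIRINOX and -0.07 under vehicle, beside -0.012 and -0.0089 over all genes. E5 and control libraries did not overlap for 8 of the 10 genes under FOLFIRINOX and for 6 under vehicle, where the share over all genes was 57.2% under FOLFIRINOX and 54.8% under vehicle. For the difference of the responses 3 of the 10 genes were called, all with the smaller response in E5 cells, beside 25.7% of all genes, 13.3% as higher and 12.4% as lower. The comparisons share libraries, so their values for a gene are not independent of each other.

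**Figure D4:**
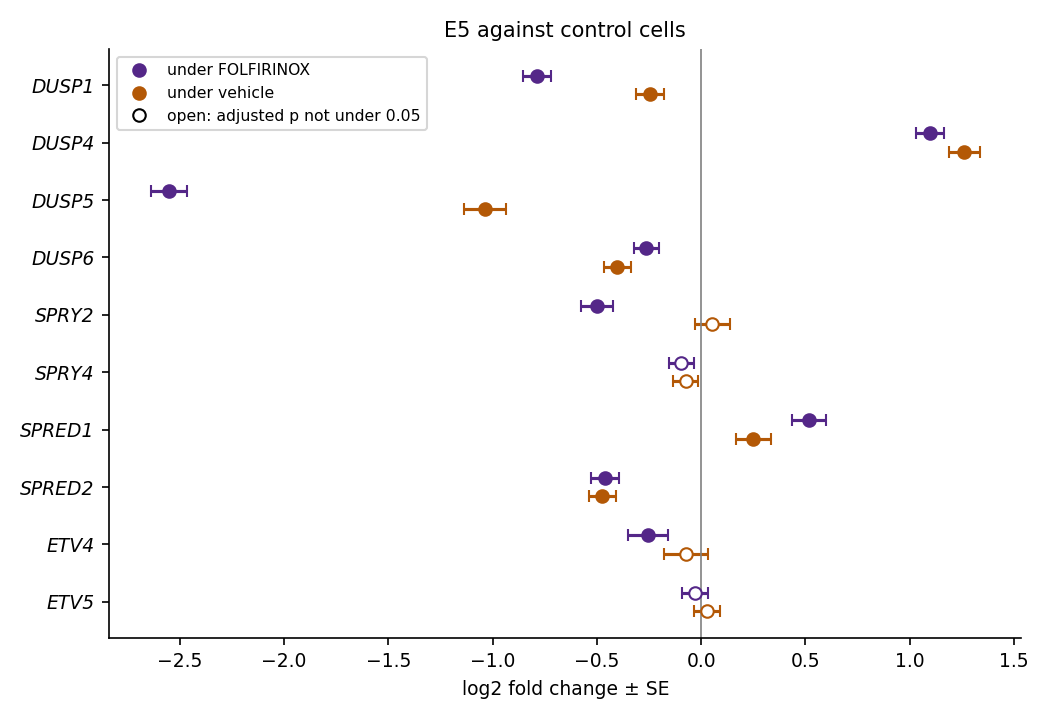
Log2 fold change ± SE of E5 against control cells for each gene under FOLFIRINOX (purple, upper point) and under vehicle (orange, lower point), with open points at an adjusted p of 0.05 or more. DUSP4 and SPRED1 lie right of 0 under both treatments, and DUSP5 lies farthest left (-2.55 under FOLFIRINOX and -1.03 under vehicle).

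The promoters are shown for 3 of the genes, because DUSP1 and SPRY2 rose with FOLFIRINOX with a smaller response in E5 cells while SPRY4 fell alike in direction in both lines, and all 3 held the core of the cyclic AMP response element (CRE), TGACG. RefSeq windows of 300 bases (250 before and 50 after a start, GRCh38.p14) were matched by symbol for 6 of the 10 genes, in 9 windows, and DUSP4, DUSP5, ETV4 and ETV5 were not matched. Each sequence runs 5′ to 3′ on the strand of the gene, the minus strand in all 3, with the matches to TGACG on either strand in capitals. The windows are chr5:172771146-172771445 (DUSP1), chr13:80341077-80341376 (SPRY2) and chr5:142324198-142324497 (SPRY4).
DUSP1: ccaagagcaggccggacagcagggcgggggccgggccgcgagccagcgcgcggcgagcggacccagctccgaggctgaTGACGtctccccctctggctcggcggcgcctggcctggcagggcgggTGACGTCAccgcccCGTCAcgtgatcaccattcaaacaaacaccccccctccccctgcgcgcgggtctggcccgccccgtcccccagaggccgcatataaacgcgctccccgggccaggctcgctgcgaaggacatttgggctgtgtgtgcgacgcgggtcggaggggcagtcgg
SPRY2: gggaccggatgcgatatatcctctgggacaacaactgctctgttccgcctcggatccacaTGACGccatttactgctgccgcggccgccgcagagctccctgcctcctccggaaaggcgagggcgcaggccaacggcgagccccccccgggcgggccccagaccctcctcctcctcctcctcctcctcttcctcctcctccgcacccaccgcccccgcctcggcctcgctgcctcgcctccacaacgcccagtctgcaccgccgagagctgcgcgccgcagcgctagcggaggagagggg
SPRY4: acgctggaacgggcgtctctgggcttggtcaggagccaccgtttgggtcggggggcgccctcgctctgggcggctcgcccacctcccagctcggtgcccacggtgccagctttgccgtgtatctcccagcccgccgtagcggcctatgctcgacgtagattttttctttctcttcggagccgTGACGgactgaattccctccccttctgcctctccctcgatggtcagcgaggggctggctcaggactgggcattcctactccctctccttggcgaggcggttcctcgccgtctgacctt

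DUSP1 held 4 matches to TGACG, which began 172, 125, 122 and 111 bases before the start, and those at 125 and 122 overlap within a full CRE, TGACGTCA. SPRY2 held a match at 190 bases and SPRY4 a match at 68 bases before the start. The SPRY4 window lies wholly within the span of the gene (chr5:142310427-142326455), so that its start is internal and not the 5′ end of that span. The DUSP1 and SPRY2 windows reach past the 5′ end of their genes. The full CRE occurred in 1.85% of the 35116 promoter windows of the table and TGACG, read on both strands, in 24.6% of them, so that a match to TGACG alone is common. Of the 9 windows of the 6 genes, 4 held TGACG, and those of DUSP6 and SPRED1 held none. The 3 genes shown were picked among those that hold it, and a link of TGACG to the drug response was not tested. SPRED2 had TGACG at 30 bases after the start in 1 window. In another it had the AP-1 site TGANTCA (7.71% of all windows) at 6 bases before and 34 bases after the start. That other window, chr2:65366729-65367028, likewise lies wholly within the span of SPRED2. No window of the 6 genes held the CIC sites TGAATGAA (1.65% of all windows) or TGAATGGA (1.03%), the ETS motif CCGGAAGT (4.14%), the E2F motif GGCGGGAA (3.16%) or a serum response CArG box (1.29%). These are matches of letters in short windows and describe neither binding nor a cause.

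Other genes of the pathway were counted over lists chosen with earlier results of these data known. Each count is to be read against the share of all genes called. For FOLFIRINOX that share was 25.0% higher and 27.3% lower in E5 cells, and 32.6% higher and 32.7% lower in control cells. For E5 against control cells it was 26.7% higher and 27.6% lower under FOLFIRINOX, and 22.1% higher and 22.2% lower under vehicle. Of the MAP kinase phosphatases outside the 10 genes, 6 of 7 were tested, and FOLFIRINOX raised 4 and lowered 1 in E5 cells and raised 5 and lowered 1 in control cells. DUSP10, a phosphatase of JNK and p38, averaged 13.6 ± 0.212 CPM in E5 cells given FOLFIRINOX and 5.34 ± 0.602 CPM in E5 cells given vehicle, against 22.8 ± 0.443 and 7.67 ± 0.905 CPM in control cells given FOLFIRINOX and vehicle (SD, n = 3 each). It rose by 1.33 ± 0.11 in E5 cells (adjusted p = 5.58e-08) and by 1.59 ± 0.10 in control cells (adjusted p = 4.77e-10). DUSP14 also rose in both lines, by 0.30 ± 0.08 in E5 cells (adjusted p = 0.00527) and by 0.79 ± 0.08 in control cells (adjusted p = 2.71e-07). DUSP7, a cytoplasmic relative of DUSP6, rose by 0.55 ± 0.11 in E5 cells (adjusted p = 0.000403) and by 0.39 ± 0.10 in control cells (adjusted p = 0.00391). Between the lines under FOLFIRINOX none of the 6 was higher and 5 were lower in E5 cells, beside 26.7% and 27.6% of all genes, with a median of -0.51, beside -0.012 over all genes. DUSP8, which averaged only 1.25 CPM over the 12 libraries, was among the 5 (-1.10 ± 0.28; adjusted p = 0.00294). Under vehicle its value was -0.95 ± 0.41, which was not called (adjusted p = 0.0698).

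Of the remaining Sprouty, SPRED and PEA3 genes, SPRY1, SPRED3 and ETV1 were tested. SPRY1 averaged 19.7 ± 1.49 CPM in E5 cells given FOLFIRINOX and 31.5 ± 1.98 CPM in E5 cells given vehicle, against 13.0 ± 1.19 and 31.1 ± 0.754 CPM in control cells given FOLFIRINOX and vehicle. It fell by 0.67 ± 0.09 in E5 cells (adjusted p = 6.04e-06) and by 1.25 ± 0.09 in control cells (adjusted p = 3.30e-09), the same direction as SPRY4. ETV1, the remaining PEA3-type factor, averaged 138 ± 3.42 CPM in E5 cells given FOLFIRINOX and 122 ± 3.27 CPM in E5 cells given vehicle, against 53.3 ± 3.49 and 90.7 ± 0.617 CPM in control cells given FOLFIRINOX and vehicle. With FOLFIRINOX, ETV1 rose by 0.18 ± 0.06 in E5 cells (adjusted p = 0.0166) and fell by 0.76 ± 0.06 in control cells (adjusted p = 1.52e-08). ETV1 was higher in E5 than in control cells under FOLFIRINOX by 1.37 ± 0.06 (adjusted p = 9.94e-12) and under vehicle by 0.43 ± 0.06 (adjusted p = 1.81e-05), unlike ETV4 and ETV5, whose libraries of the lines overlapped. SPRED3 rose in both lines, by 0.76 ± 0.11 in E5 cells (adjusted p = 2.85e-05) and by 0.61 ± 0.11 in control cells (adjusted p = 9.60e-05).

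Of 11 genes of the RAS-ERK cascade itself, FOLFIRINOX raised 1 and lowered 3 in E5 cells, beside 25.0% and 27.3% of all genes, so that the share lowered there was that over all genes. In control cells it raised 1 and lowered 7, beside 32.6% and 32.7% of all genes. MAPK3, which encodes ERK1, fell by 0.44 ± 0.12 in E5 cells (adjusted p = 0.00507) and by 0.92 ± 0.12 in control cells (adjusted p = 4.73e-06). Under FOLFIRINOX 7 of the 11 were higher and 2 lower in E5 than in control cells, beside 26.7% and 27.6% of all genes. Among them were KSR1, a scaffold of the cascade (1.33 ± 0.07; adjusted p = 7.57e-11), and ARAF (0.66 ± 0.08; adjusted p = 2.22e-06), which were also higher under vehicle, KSR1 by 0.96 ± 0.07 (adjusted p = 5.61e-09) and ARAF by 0.23 ± 0.08 (adjusted p = 0.0217). Of 14 adaptors and RAS regulators, FOLFIRINOX raised 4 and lowered 3 in E5 cells and raised 2 and lowered 7 in control cells. NF1, which encodes the neurofibromin that SPRED proteins recruit, fell by 0.49 ± 0.08 in E5 cells (adjusted p = 8.58e-05) and by 1.08 ± 0.08 in control cells (adjusted p = 6.58e-09). RASA3 had a value of -0.24 ± 0.10 in E5 cells, which was not called (adjusted p = 0.0551), and fell by 0.68 ± 0.10 in control cells (adjusted p = 1.20e-05). SHC1 was higher in E5 than in control cells, by 0.44 ± 0.07 under FOLFIRINOX (adjusted p = 3.09e-05) and by 0.81 ± 0.07 under vehicle (adjusted p = 2.59e-08). RASAL2 was lower in E5 cells under FOLFIRINOX (-0.30 ± 0.08; adjusted p = 0.00318) and under vehicle (-0.72 ± 0.08; adjusted p = 7.45e-07).

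Of 12 other reported targets of ERK output, FOLFIRINOX raised 8 and lowered 2 in E5 cells and raised 10 and lowered 1 in control cells. The response was called smaller or more negative in E5 cells for 8 of the 12 and larger for 1, beside the 12.4% and 13.3% over all genes. HBEGF, a growth factor that activates the EGF receptor, averaged 12.5 ± 0.459 CPM in E5 cells given FOLFIRINOX and 6.02 ± 0.950 CPM in E5 cells given vehicle, against 48.9 ± 1.07 and 10.7 ± 0.561 CPM in control cells given FOLFIRINOX and vehicle. It rose by 1.09 ± 0.11 in E5 cells (adjusted p = 3.98e-07) and by 2.18 ± 0.09 in control cells (adjusted p = 3.37e-12). The kinase gene SPHK1 rose by 1.21 ± 0.17 in E5 cells (adjusted p = 1.84e-05) and by 2.23 ± 0.16 in control cells (adjusted p = 2.56e-09). The small MAF factor MAFF rose by 0.76 ± 0.09 in E5 cells (adjusted p = 3.89e-06) and by 2.11 ± 0.09 in control cells (adjusted p = 1.00e-11). LIF, a cytokine of the interleukin 6 family, was higher in E5 than in control cells by 1.89 ± 0.11 under FOLFIRINOX (adjusted p = 1.52e-10) and by 2.36 ± 0.11 under vehicle (adjusted p = 1.31e-11).

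Of 10 other feedback inhibitors of receptor signalling, FOLFIRINOX raised 4 and lowered 3 in E5 cells and raised 4 and lowered 4 in control cells. IL17RD, a membrane inhibitor of FGF signalling, fell by 0.74 ± 0.11 in E5 cells (adjusted p = 2.97e-05) and by 0.99 ± 0.11 in control cells (adjusted p = 4.87e-07). RASSF1 rose by 0.40 ± 0.13 in E5 cells (adjusted p = 0.0146) and by 1.40 ± 0.12 in control cells (adjusted p = 4.18e-08). LRIG1 was higher in E5 than in control cells by 1.05 ± 0.09 under FOLFIRINOX (adjusted p = 2.84e-08) and by 0.64 ± 0.09 under vehicle (adjusted p = 2.47e-05). LRIG3 was higher by 0.99 ± 0.08 under FOLFIRINOX (adjusted p = 1.88e-08) and by 0.71 ± 0.09 under vehicle (adjusted p = 5.05e-06). Of 10 ETS and CIC regulators, FOLFIRINOX raised 2 and lowered 4 in each line. The 2 that rose in each line were ETS1 and ETS2. ETS1 rose by 0.98 ± 0.05 in E5 cells (adjusted p = 3.68e-10) and by 1.33 ± 0.05 in control cells (adjusted p = 2.69e-12). ETS2 rose by 1.27 ± 0.07 in E5 cells (adjusted p = 3.54e-10) and by 0.61 ± 0.07 in control cells (adjusted p = 7.05e-07). ATXN1, which encodes a partner of CIC, fell by 0.61 ± 0.07 in E5 cells (adjusted p = 1.13e-06) and by 1.07 ± 0.07 in control cells (adjusted p = 1.11e-09). ELK3 was lower in E5 than in control cells under FOLFIRINOX (-0.76 ± 0.06; adjusted p = 2.01e-08) and under vehicle (-0.67 ± 0.06; adjusted p = 1.44e-07).

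Of 11 fibroblast growth factor and receptor genes 9 were tested, and none was higher in E5 than in control cells under either treatment, beside 26.7% of all genes under FOLFIRINOX and 22.1% under vehicle. Lower in E5 cells were 7 under FOLFIRINOX and 6 under vehicle, beside 27.6% and 22.2% of all genes. All 4 that follow averaged under 3 CPM over the 12 libraries. FGFR4 was lower in E5 cells under FOLFIRINOX (-1.26 ± 0.23; adjusted p = 0.000172) and under vehicle (-1.89 ± 0.26; adjusted p = 1.30e-05). FGFR3 was lower under FOLFIRINOX (-1.70 ± 0.35; adjusted p = 0.000538) and under vehicle (-1.50 ± 0.25; adjusted p = 0.000119). FGF1 was lower under FOLFIRINOX (-1.57 ± 0.18; adjusted p = 1.37e-06) and under vehicle (-0.96 ± 0.19; adjusted p = 0.000546). FGFR2 fell with FOLFIRINOX by 0.84 ± 0.22 in E5 cells (adjusted p = 0.00344) and by 1.13 ± 0.21 in control cells (adjusted p = 0.000186). Of the 7 genes of the stress kinases JNK and p38, FOLFIRINOX raised none and lowered 3 in E5 cells and raised 1 and lowered 3 in control cells. MAPK13 was low, with a mean of 1.33 CPM over the 12 libraries. It had a value of 0.74 ± 0.32 in E5 cells, which was not called (adjusted p = 0.0628), and rose by 1.49 ± 0.24 in control cells (adjusted p = 4.01e-05). MAPK11 fell by 0.60 ± 0.08 in E5 cells (adjusted p = 1.69e-05) and by 1.09 ± 0.09 in control cells (adjusted p = 1.35e-08). MAPK12 fell by 0.34 ± 0.11 in E5 cells (adjusted p = 0.0136) and by 0.61 ± 0.11 in control cells (adjusted p = 0.000106). MAPK8, which encodes JNK1, was lower in E5 than in control cells under FOLFIRINOX (-0.65 ± 0.07; adjusted p = 3.05e-07) and under vehicle (-0.55 ± 0.07; adjusted p = 3.27e-06).

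As a description of likeness, log2 CPM of each gene was correlated over the 12 libraries with 10254 protein-coding genes of at least 5 CPM. The libraries fall into 4 groups, so that a high r mostly reflects a like order of the group means. The likest genes were RFWD3 (r = 0.996) and HBEGF (0.995) for DUSP5, UTP14A (0.990) and FBXO34 (0.990) for DUSP1, CEMIP (0.995) and CD163L1 (0.991) for DUSP4, and DMKN (0.988) and ENO2 (0.987) for DUSP6. SPRY2 was likest to DRG1 (0.986) and PRMT5 (0.985), and SPRY4 to TAF15 (0.994) and ZCCHC24 (0.991). SPRED1 was likest to SOD2 (0.952) and RNF217 (0.939), and SPRED2 to CNNM1 (0.982) and PRKCE (0.978). ETV4 was likest to RRP1 (0.989) and MRPS15 (0.987), and ETV5 to PGD (0.991) and QARS1 (0.991).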

How the data were processed

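The deposited counts are unscaled, stranded numbers of reads per gene from the authors' STAR run. Per the submitters' processing notes, Trimmomatic and STAR 2.5.1b were used with build GRCh38. FPKM values were computed by the authors, and the deposited rlog values hold rlog-transformed log2 values, per the file headers. No source used here names the program behind either. In the tables, 12 numbered columns, with 3 for each of 4 GEO samples, were read as 12 libraries, and no sample column was left out. Reads outside genes (unmapped 1.47 to 1.70%, multimapping 10.8 to 12.8%, no feature 6.63 to 8.52%, ambiguous 2.86 to 3.20%) stayed out of library sizes.

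Counts were tested with edgeR 4.0.16 in R 4.3.3 (quasi-likelihood, group means over all 4 groups, TMM, filterByExpr), with Benjamini-Hochberg adjustment at 0.05 for 5 comparisons. CPM values are TMM scaled. The script was tested on simulated data. Alternatives were other scalings, no filter, DESeq2 1.42.0, fits of the compared groups alone, a replicate block, limma 3.58.1 on log2(FPKM + 1), log2(FPKM + 0.1) and rlog, and leaving out each library. Libraries of a group differed by 1.46 to 13.3 times the counting variance, so no pair lay within counting noise. RefSeq promoter windows were searched by exact match on both strands.

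The 10 genes, the lists and the rule for naming were chosen with earlier results of these data known. The rule names all 10 genes, the up to 4 genes of each list with the largest called change among those averaging 1 CPM or more, and the 2 likest genes of each of the 10. Some genes that this rule names are left out of the text.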

Additional observations from a re-analysis of the deposited data

Results flagged for a closer look

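The response to FOLFIRINOX differed between the lines for 3 of the 10 genes by the test of the difference itself (edgeR quasi-likelihood, Benjamini-Hochberg adjustment over all genes tested), always with the smaller response in E5 cells. DUSP5 had an E5 minus control difference of -1.52 ± 0.13 on the log2 scale (adjusted p = 8.93e-07), with all 3 FOLFIRINOX libraries above all 3 vehicle libraries in each line. DUSP1 had a difference of -0.54 ± 0.09 (adjusted p = 0.000591), and SPRY2 of -0.55 ± 0.11 (adjusted p = 0.00208). All 3 kept their sign and their call under every alternative run, with ranges over the fits that each left out a library of -1.60 to -1.43 for DUSP5, -0.59 to -0.49 for DUSP1 and -0.61 to -0.48 for SPRY2. Of all genes tested, 25.7% had a called difference, 12.4% with a lower and 13.3% with a higher value in E5 cells. A called difference is thus not particular to these genes.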

How the results depend on the processing

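Over 9 other settings and 12 fits that each left out a library, 1040 values of the 10 genes were recomputed, of which 991 kept their direction and their side of the threshold, 19 lost a call, 10 gained a call and 20 changed sign. None of the 20 had been called, and the lost calls belong to 6 of the 34 calls, given beside their genes above; the cause was not tested. Sign changes of the E5 minus control difference were SPRED2 with total counts (-0.054), with log2(FPKM + 1) and log2(FPKM + 0.1) (both -0.11) and over left-out libraries (-0.023 to 0.067), SPRY4 without the filter (0.024) and over left-out libraries (-0.059 to 0.024), and DUSP6 with log2(FPKM + 1) (-0.016) and log2(FPKM + 0.1) (-0.014). For E5 against control cells they were ETV5 under FOLFIRINOX without the filter (0.021) and over left-out libraries (-0.056 to 0.0066), and under vehicle over left-out libraries ETV4 (-0.16 to 0.023), ETV5 (-0.019 to 0.053) and SPRY2 (-0.017 to 0.12). Of the members' promoter windows, 1 held the AP-1 site and 0 did with the 250 bases before the start alone.

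With total-count scaling the median of all genes was 0.14 for FOLFIRINOX in control cells. The limma fits on FPKM change the input, the pseudocount and the test together. With log2(FPKM + 1) and log2(FPKM + 0.1) that median was 0.14 and 0.19, and it was -0.10 and -0.13 for E5 against control cells under FOLFIRINOX, and -0.12 with log2(FPKM + 0.1) for the difference of the responses. The split of higher and lower calls was 5969 and 2949 with log2(FPKM + 1) and 6197 and 3997 with total counts, beside 5095 and 5109, for FOLFIRINOX in control cells. It was 3896 and 2775 with log2(FPKM + 0.1), beside 3909 and 4265, in E5 cells, and 2638 and 4821 with log2(FPKM + 1), beside 4170 and 4318, between the lines under FOLFIRINOX. For the difference of the responses it was 814 and 2258 with log2(FPKM + 1), 1603 and 2446 with total counts and 2359 and 1364 without the filter, beside 2080 and 1933.

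No pairing by library number was seen: over 18 pairs the deviations of same-numbered libraries correlated between -0.28 and 0.20, and 4 of 12 libraries correlated best with their own number. Deviations from means of 3 libraries cannot exclude a weak pairing. With the replicate block 1 call of the 10 genes was lost, ETV4 between the lines under FOLFIRINOX (-0.25; adjusted p = 0.0511 by edgeR).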

Other observations

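The antisense and divergent neighbours of the 10 genes were looked at after the values were seen. SPRY4-AS1, a transcript that starts within the span of SPRY4 on the opposite strand, had 77 counts over 3 libraries in E5 cells given FOLFIRINOX and 55 in E5 cells given vehicle, against 188 in control cells given FOLFIRINOX and 68 in control cells given vehicle. It rose with FOLFIRINOX in control cells by 1.51 ± 0.21 on the log2 scale (adjusted p = 8.81e-06 by edgeR), while SPRY4 itself fell there by 0.67. In E5 cells the value was -0.00040 ± 0.29 (adjusted p = 0.999), and the E5 minus control difference of -1.51 ± 0.34 was called (adjusted p = 0.00419). DUSP5-DT, which lies beside DUSP5, had 15 and 4 counts in E5 cells given FOLFIRINOX and vehicle, against 57 and 6 in control cells given FOLFIRINOX and vehicle. It rose in control cells by 3.20 ± 0.47 (adjusted p = 1.44e-05) and was not called in E5 cells (1.37 ± 0.71; adjusted p = 0.116), but the E5 minus control difference of -1.83 ± 1.04 was not called either (adjusted p = 0.215). The authors' FPKM of DUSP5-DT did not separate the control groups, at 0.32 to 0.71 under FOLFIRINOX and 0.12 to 0.74 under vehicle. In E5 cells its FPKM were 0.47 to 0.69 under FOLFIRINOX and 0.18 to 0.29 under vehicle, without overlap. The counts and the FPKM of this low transcript thus differ on the response of each line. The counts are stranded, and ETV5-AS1 had 0 counts in every library, which allows up to 3 counts.

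The RefSeq window at the start of SPRY4-AS1 (GRCh38.p14, chr5:142325043-142325342, plus strand) is printed because it lies inside SPRY4 and holds a CIC site that the windows of the 6 matched genes lacked. Capitals mark TGAATGGA, found 2 bases after the start and in 1.03% of all windows, and TGAATGGG, a pattern searched after the window had been read, found 242, 190 and 135 bases before the start and in 0.963% of all windows. The window also held the E2F motif GGCGGGAA, left in lower case, at 126 bases before the start. That motif occurred in 3.16% of all windows and was likewise lacking in those of the 6 matched genes.
SPRY4-AS1: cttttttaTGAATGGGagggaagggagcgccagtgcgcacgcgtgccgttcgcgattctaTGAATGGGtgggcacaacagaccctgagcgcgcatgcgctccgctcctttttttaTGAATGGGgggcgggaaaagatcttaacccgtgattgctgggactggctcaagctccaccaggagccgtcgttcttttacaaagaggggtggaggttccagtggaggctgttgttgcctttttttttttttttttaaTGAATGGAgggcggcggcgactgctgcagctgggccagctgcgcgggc
The matches describe letters only, and no binding was measured.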
